A study of Mus musculus with 24 samples.

Results

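The Cyp2d genes encode cytochrome P450 enzymes and lie side by side on mouse chromosome 15, where they arose by repeated duplication. They were examined here as 8 named genes, Cyp2d9, Cyp2d10, Cyp2d11, Cyp2d12, Cyp2d13, Cyp2d22, Cyp2d26 and Cyp2d34. The measurement was H3K27ac, an acetylated histone found at active promoters and enhancers, mapped by ChIP-seq in whole liver, at 8 weeks of age, of C57BL/6J mice, here B6, and CAST/EiJ mice, here CAST. There were 5 male and 5 female livers per strain and 1 input DNA sample per group, no treatment is named, and the deposited lists hold 1 merged set of peaks per group. Members were found by position: every peak overlapping the gene body or the 10 kb on either side of it was taken, in mm9 coordinates. The rule could be applied to 7 of the 8 genes, because the mm9 annotation used here has no entry named Cyp2d13. The windows of these 7 genes hold 38 of the 119348 regions obtained by merging the 4 lists.

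P450 enzymes of this family oxidise drugs, steroids and other small lipophilic compounds in the endoplasmic reticulum of hepatocytes, with electrons supplied by Por and cytochrome b5. Cyp2d9 encodes a testosterone hydroxylase known for its higher expression in male than in female mouse liver, a difference set by the pulsatile male pattern of growth hormone acting through Stat5b. Cyp2d22 is regarded as the mouse gene closest to human CYP2D6, a major drug-metabolising enzyme.

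Each list is named as merged over the 5 livers of its group, although its peak names carry the code of 1 library, and it was taken here as pooled. A group thus has 1 value and no replicate spread, and no test between groups was possible. Values are therefore given as descriptions, beside the share of all regions or genes in the same 4 lists that show the same thing. Intervals cover counting error only and compare lists, not conditions. In whole liver, a change in the share of a cell type and a change within cells cannot be told apart. The strain field of the labels contradicts the sample titles for the B6 female and CAST male samples, and groups follow the titles. Promoter peaks of the hepatocyte genes Alb, Apoa1, Ttr and Cyp2e1 were present in all 4 lists, and Serpina1a had no peak in any list. Of 6 genes of other liver cells, Ptprc, Clec4f, Lyve1, Stab2, Dcn and Krt19, 3 had a promoter peak in males and 4 in females of B6, and 2 and 1 in CAST. Cux2, a repressor known to be made mainly in female liver, had 18930 bp under peaks in B6 females against 9481 bp in B6 males, and 18010 bp in CAST females against 9409 bp in CAST males.

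Likeness in sequence limits what uniquely mapped reads can show. Cyp2d9, Cyp2d10, Cyp2d11, Cyp2d12 and Cyp2d34 were close to each other, while Cyp2d22 and Cyp2d26 differed more. Over the 21 pairs of the 7 genes, coding sequences were 79.2% to 94.7% identical, with Cyp2d10 and Cyp2d11 the most alike. Close to the transcription start the likeness is also high: the 250 bases before the annotated start were 93.6% identical between Cyp2d9 and Cyp2d11 and 86.9% between Cyp2d9 and Cyp2d10, but 61.2% between Cyp2d9 and Cyp2d22. A run of 32 bases that ends in a TATA-like stretch was found in the upstream sequence of 5 genes, Cyp2d9, Cyp2d10, Cyp2d11, Cyp2d12 and Cyp2d34, and in no other of 22345 protein-coding promoters examined. These upstream sequences, read from mm9 and written 5′ to 3′ in the direction of transcription, carry this run in capitals. They are shown because Cyp2d9, Cyp2d10 and Cyp2d11 had a peak within 1 kb of the start in every list and Cyp2d12 in 1 list only, although all 4 share the run.
Cyp2d9, chr15:82282557-82282806, plus strand: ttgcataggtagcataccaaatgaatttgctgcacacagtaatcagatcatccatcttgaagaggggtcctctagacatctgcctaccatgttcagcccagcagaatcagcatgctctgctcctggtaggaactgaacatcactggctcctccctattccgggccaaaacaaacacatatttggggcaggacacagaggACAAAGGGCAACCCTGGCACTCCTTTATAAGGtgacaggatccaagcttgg
Cyp2d10, chr15:82237625-82237874, minus strand: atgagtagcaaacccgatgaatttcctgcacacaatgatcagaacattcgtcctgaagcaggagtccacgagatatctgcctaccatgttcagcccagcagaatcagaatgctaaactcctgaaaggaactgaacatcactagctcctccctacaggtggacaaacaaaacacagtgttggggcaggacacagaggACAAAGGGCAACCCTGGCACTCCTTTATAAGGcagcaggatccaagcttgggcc
Cyp2d11, chr15:82224453-82224702, minus strand: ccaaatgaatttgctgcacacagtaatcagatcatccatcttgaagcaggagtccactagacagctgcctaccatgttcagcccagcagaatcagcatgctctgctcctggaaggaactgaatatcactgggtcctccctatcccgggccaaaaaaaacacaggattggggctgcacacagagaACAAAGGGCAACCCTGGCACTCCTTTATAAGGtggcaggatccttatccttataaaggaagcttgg
Cyp2d12, chr15:82385288-82385537, plus strand: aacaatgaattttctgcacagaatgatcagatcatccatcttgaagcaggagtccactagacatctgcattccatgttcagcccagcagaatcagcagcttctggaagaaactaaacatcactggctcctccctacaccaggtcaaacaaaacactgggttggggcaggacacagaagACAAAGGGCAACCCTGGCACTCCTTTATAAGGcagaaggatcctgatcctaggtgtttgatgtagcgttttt

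Letters of 9 motifs were searched on both strands of the 250 bases before each start. TATAAA or its reverse complement was found for 6 of the 7 genes, Cyp2d22 being the exception, against 12.3% of all protein-coding promoters of that length. None of the 7 held TTCNNNGAA (STAT5, 6.83% of all promoters), CCGGAAG (GABP, 8.23%), TTGCNNAA (C/EBP, 9.17%), ATCAAT (HNF6, 6.56%), CAAAGTCCA (HNF4, 0.398%), the HNF4 direct repeat (0.0492%) or GGGCGG (SP1, 39.6%). The HNF1 palindrome was in none of the members, nor in any other promoter (0%). These matches describe letters in a window and say nothing of binding.

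Unique sequence was measured as the share of 50-base words found once in the mm9 genome on either strand. By the study's methods the reads were pairs of 50 bases, so single words may understate where a pair could be placed. In the windows of the 7 genes 81% of words were unique, close to the windows of the Cyp2b genes (81.1%) and Cyp3a genes (82.8%) and above those of the Cyp2c genes (71.3%). The members were unequal. Gene bodies of Cyp2d11 and Cyp2d10 were the least unique, at 77.3% and 77.6%, and Cyp2d22 the most, at 98%. Around the transcription start, within 1 kb on each side, Cyp2d11 had 66.7% unique words and Cyp2d9 had 70.3%, while the other 5 genes had 94% to 97.8%. Of the repeated words in the gene bodies of Cyp2d9, Cyp2d10, Cyp2d11 and Cyp2d12, between 97.2% and 100% had their other copy inside the locus.

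**Figure D1:**
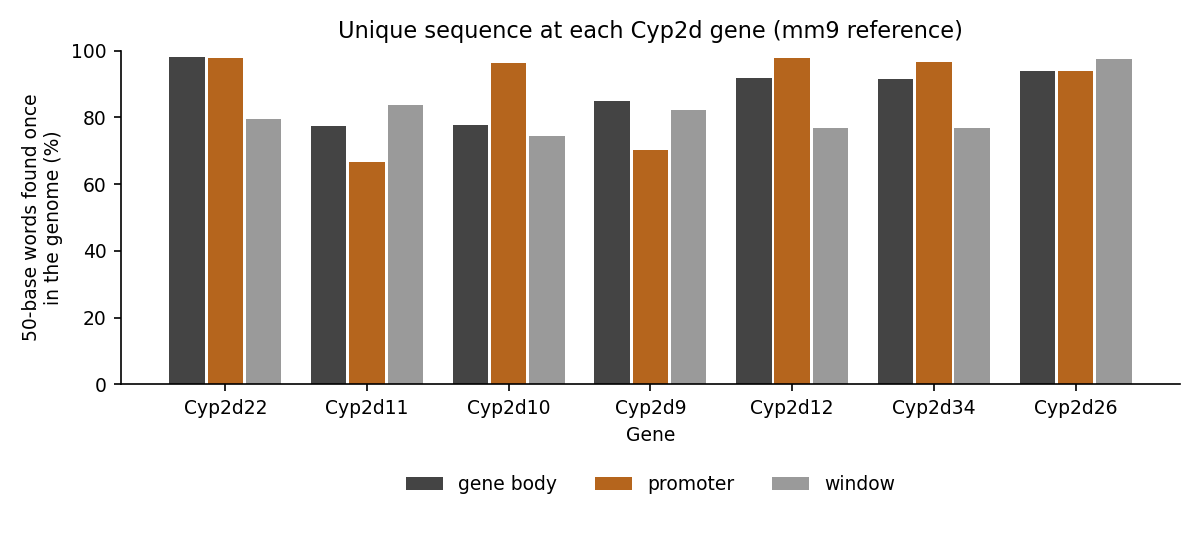
Share of 50-base words that occur once in mm9 (vertical axis, %), for the gene body, the promoter (1 kb on each side of the annotated start) and the window (gene body with 10 kb on each side) of each located Cyp2d gene. The promoters of Cyp2d11 and Cyp2d9 stand lowest, at 66.7% and 70.3%.

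Called bases were more often unique than uncalled ones. Bases inside called regions were 97.8% unique, against 73.7% outside them, over the 444 kb from the first to the last window. Of 44 consecutive 10 kb bins, 7 were under 50% unique and 1 of these held a call, compared with 31 of the other 37 bins. The stretch between Cyp2d9 and Cyp2d12 was 55.8% unique, or 75.2% by words of 100 bases. In its repeated parts an absence of peaks cannot be told apart from an absence of uniquely mapped reads. Other parts had no peak although most words were unique, such as the 2 kb bins centred 25.2 to 33.2 kb past the start of Cyp2d9, at 77.6% to 98.6%.

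**Figure D2:**
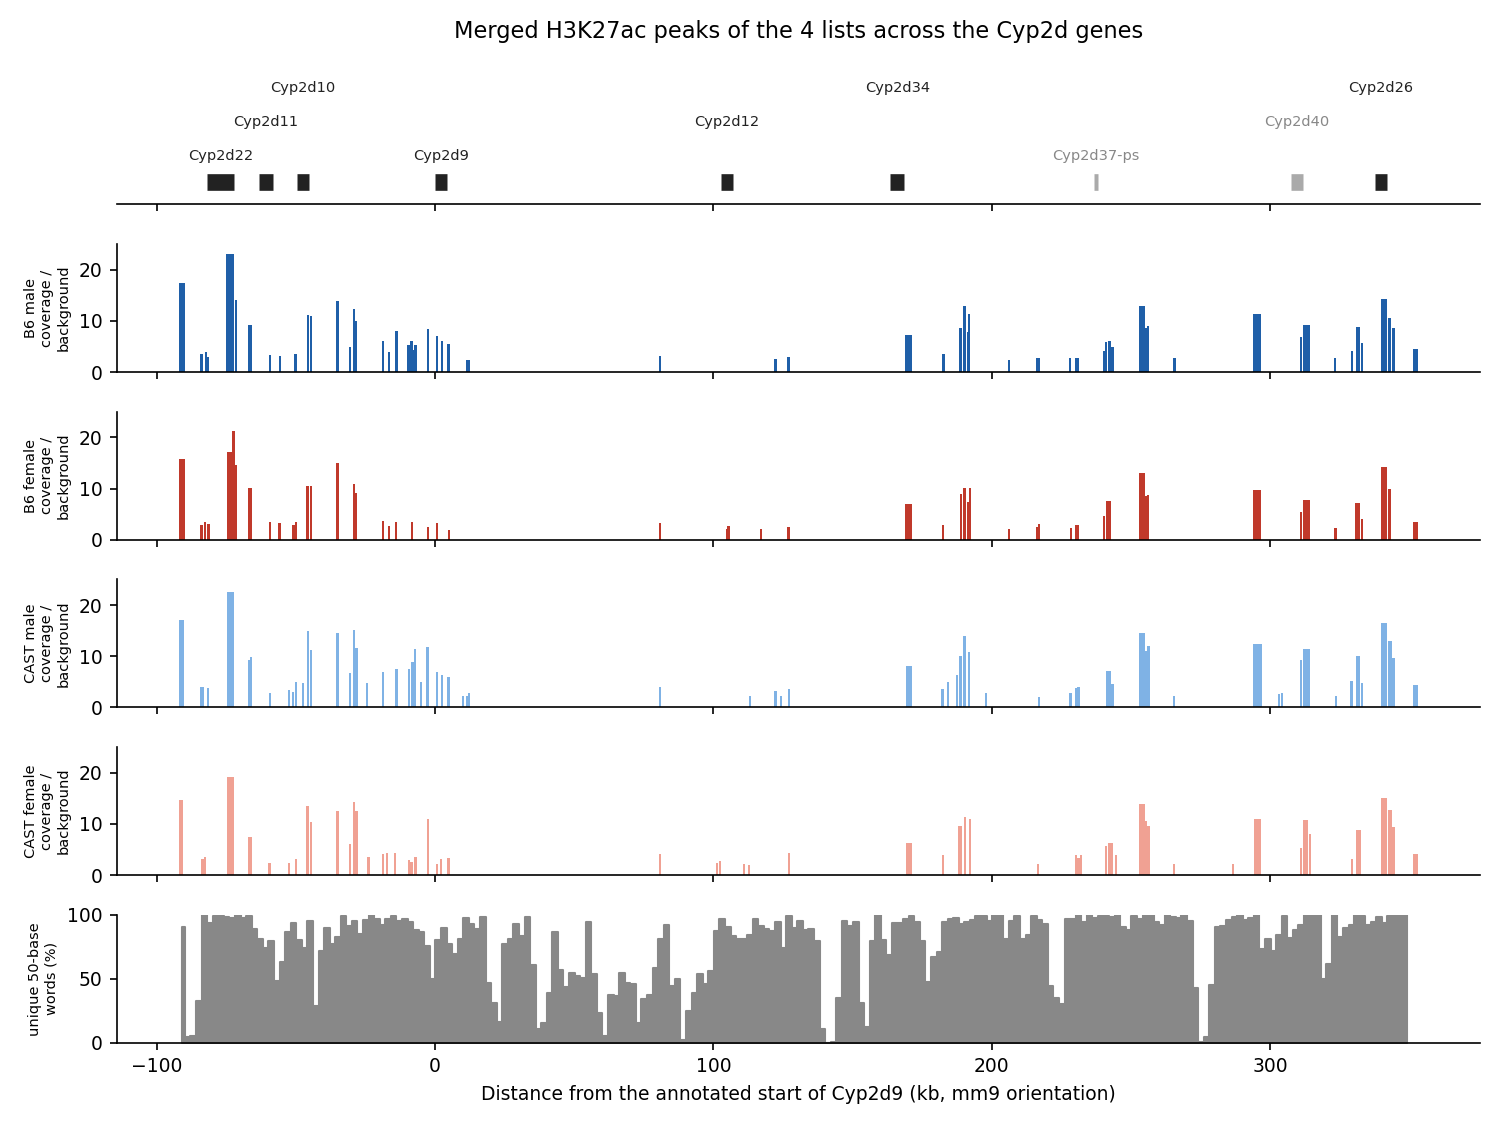
Peaks of the 4 lists across the locus, as summit coverage over the genome background of the list (vertical axes, no unit) against distance from the annotated start of Cyp2d9 (kb). Bars narrower than 0.8 kb are drawn 0.8 kb wide, members are black and other annotated Cyp2d genes grey, and the lowest panel is the share of unique 50-base words per 2 kb. Peaks next to Cyp2d9 are fewer in both female lists and mostly lower, apart from the CAST female peak 2.65 kb before the start (10.9 times background, against 11.8 in CAST males), and the wide gap to its right is 55.8% unique, with mappable and repeated stretches.

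Across the windows of the 7 genes together, 30 peaks in B6 males covered 28060 bp, 28 in B6 females covered 23373 bp, 34 in CAST males covered 26938 bp and 30 in CAST females covered 22547 bp. The male over female ratio of covered bases was 0.26 on the log2 scale in both strains. The median over single gene windows was 0.04 in B6 and 0.11 in CAST for all protein-coding genes with peaks. It was 0.00 and 0.14 for the 7 members, 0.40 and 0.27 for the hepatocyte markers with peaks, and -0.10 and 0.17 for the genes of other liver cells with peaks. Of the latter, 2 passed 1.5-fold in B6, Ptprc and Clec4f, both with more in females, and 3 in CAST, Ptprc and Dcn with more in males and Clec4f with more in females, each with at most 1261 bp in any list. By single windows the members were thus near all genes, and the joint value counts long stretches of peaks such as those at Cyp2d9 more. Over the whole locus, 60, 54, 67 and 59 peaks were listed in the same order, with no peak number missing from any of the 4 series of numbers. Of the 38 regions in the windows, 18 were called in all 4 lists (47.4%), against 40.4% of all regions. In B6, 6 of the 30 regions called were male-only (20%) and 3 were female-only (10%), where all regions gave 17.4% and 17.5%. In CAST, 5 of 33 were male-only (15.2%) and 3 were female-only (9.09%), against 21.5% and 14.1%. These shares have wide intervals, 9.51% to 37.3% for the first of them (Wilson, 95%), and each background value lies inside its member interval. Strain-only calls were as near to the background: 2 of 21 regions called in both sexes of B6 were missing from both CAST lists (9.52%, background 8.4%), and 2 of 25 called in both sexes of CAST were missing from both B6 lists (8%, background 11.8%). At the authors' threshold the windows thus gave shares of sex-restricted and strain-restricted calls near those of the genome. With peaks of a -log10 q-value of at least 5 alone this did not hold for CAST males, with 10 of 28 regions male-only (35.7%, 20.7% to 54.2%) against 20% of all regions. Other P450 clusters gave other shares. In B6, 85.2% of 27 regions at the Cyp2b genes were called in 1 sex only (interval 67.5% to 94.1%, 22 of them female-only), against 30% (16.7% to 47.9%) at the Cyp2d genes, 35.6% (23.2% to 50.2%) at the Cyp2c genes and 37.5% (18.5% to 61.4%) at the Cyp3a genes. In CAST the shares were 72.2% (49.1% to 87.5%), 24.2% (12.8% to 41%), 42.2% (29% to 56.7%) and 64.3% (45.8% to 79.3%) in the same order. The Cyp2d interval thus did not overlap that of Cyp2b in either strain or that of Cyp3a in CAST. These intervals count neighbouring regions as independent.

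The sex difference sat at single genes. At Cyp2d9 the bases under peaks were 6651 bp in B6 males against 1711 bp in B6 females, and 6222 bp in CAST males against 3035 bp in CAST females. Both male lists were thus above both female lists. On the log2 scale the male over female ratio was 1.90 in B6 and 1.01 in CAST. These were the 98th and 95.7th percentile of the protein-coding gene windows with a peak in either list of the strain. Cyp2d12 went the other way, with no peak in B6 males, 589 bp in B6 females, 537 bp in CAST males and 1565 bp in CAST females, but all of these peaks were weak. Its ratios, -2.78 and -1.39 on the log2 scale with 100 bp added to each side, rest on at most 4 peaks per list. Protein-coding gene windows with a peak in at least 1 list of the strain numbered 16580 in B6 and 16760 in CAST. Of these, 6.65% had at least 1.5-fold more covered bases in males and 5.71% in females of B6, and 9.92% and 3.34% in CAST. Among the 7 members, Cyp2d9 passed in males and Cyp2d12 in females in each strain, and the other 5 genes passed in neither.

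The other 5 genes differed less between the sexes. Cyp2d22 had 8226, 8204, 7068 and 6384 bp in B6 males, B6 females, CAST males and CAST females. Cyp2d26 had 6507, 6177, 6892 and 6437 bp in the same order. Peaks thus covered 21.5% to 28.6% of the windows of these 2 genes in every list.
Cyp2d34 had a single region in its window, of 2364, 2373, 2102 and 2285 bp. Cyp2d10 had 4113, 4199, 3902 and 2817 bp, and Cyp2d11 had 5130, 4774, 4100 and 2926 bp, so that CAST females were lowest at both. CAST females had less cover than B6 females there, by -0.56 at Cyp2d10 and -0.69 at Cyp2d11 on the log2 scale. Windows of neighbouring genes overlap, and Cyp2d22, Cyp2d11 and Cyp2d10 share some of their peaks.

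**Figure D3:**
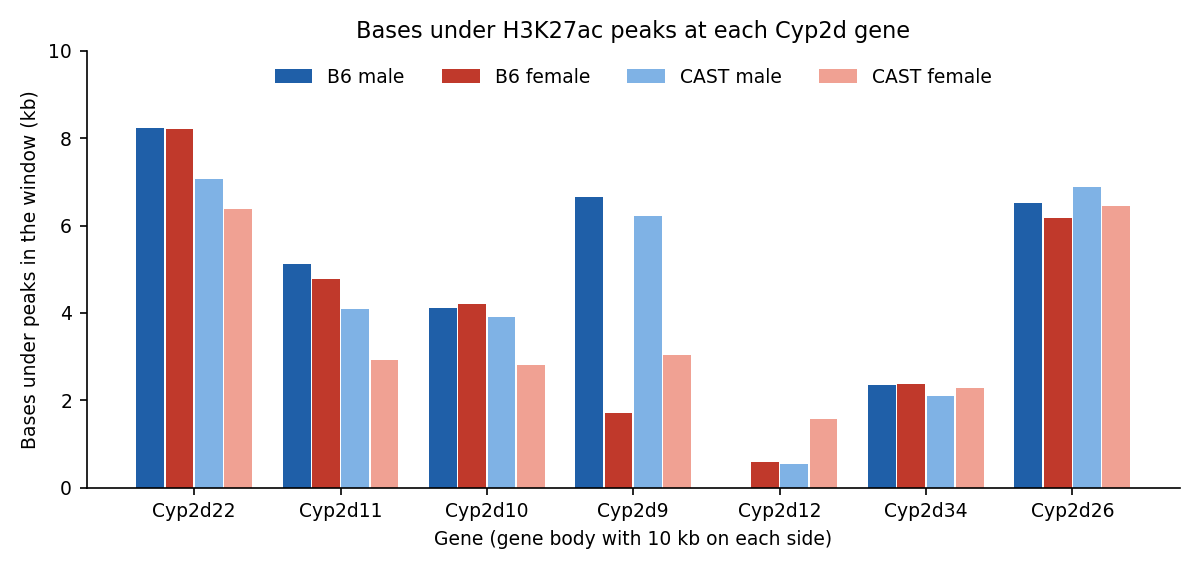
Bases under peaks (vertical axis, kb) in the window of each located Cyp2d gene, 1 bar per merged list and no error bars, since each list is 1 value. Cyp2d9 has 6651 and 6222 bp in the male lists against 1711 and 3035 bp in the female lists.

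Fold enrichment, the summit coverage over a local background, is the value the peak caller gives, and both parts of it could be recovered. Between 99.91% and 99.98% of peaks solved for a whole number of fragments over the summit, within 0.001 of the listed -log10 p-value. The genome background was 18.36 fragments per base in males and 18.7 in females of B6, and 17.78 and 16.83 in CAST, so the background coverage of the lists was similar. The local background moved with the peaks around it: its median was 3.54 to 3.85 times the genome background where 3 or more other summits lay within 5 kb, and 1.17 to 1.22 times where there was none. The study's methods name input DNA as the background, whereas these local backgrounds followed the ChIP peaks themselves, and whether input entered the deposited values was not tested. Across all regions called in both sexes, the male over female ratio of local background rose with that of summit coverage (Spearman's rho 0.54 over 59216 regions in B6 and 0.61 over 62392 in CAST, regions being no independent replicates and sharing libraries). A fold enrichment can thus hide a difference that spans several neighbouring peaks, and summit fragments over genome background are given beside it. That second measure was chosen after the data were seen.

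At the promoters, 6 of the 7 genes had a peak within 1 kb of the annotated start in B6 males, B6 females and CAST males, and 7 of 7 in CAST females, against 55.1%, 55.3%, 57.3% and 56.6% of all protein-coding genes. Cyp2d10 had 2 peaks there in every list. The one inside the gene, chr15:82236671-82237454, had fold enrichments of 5.18, 5.45, 6.16 and 6.98 in B6 males, B6 females, CAST males and CAST females. The one before the start, chr15:82237759-82238686, had 5.67, 6.12, 5.21 and 5.9. Cyp2d34 had a single peak, at 4.98, 5.82, 5.29 and 5.17. Ranked by q-value within their own list, these peaks had percentile ranks of 81.9 to 95.2, and no sex ratio of their summit coverage had an interval that left out 1. At Cyp2d9 the values were 4.04, 3.15, 3.57 and 2.13, with the CAST female peak at rank 9.69 and the B6 male peak at rank 79 on the same scale. The Cyp2d9 peak lies inside the gene, 0.842 kb past the start. Cyp2d11 had 3.2, 3.4, 2.77 and 2.36, and the CAST over B6 ratio of summit coverage was 0.863 (0.583 to 1.27) in males and 0.69 (0.456 to 1.03) in females. Cyp2d22 (2.87 to 3.44) and Cyp2d26 (3 to 3.09) varied little. Cyp2d12 had a promoter peak in CAST females alone, at 2.64-fold over 46 fragments.

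By fold enrichment, centred on the median of all regions called in both sexes, 2 of 21 shared regions in the windows were at least 1.5-fold higher in B6 males and 0 in B6 females, where all regions gave 0.836% and 0.512%. In CAST, 2 of 25 were higher in males and 1 in females, against 0.848% and 0.76%. The median over the windows was -0.03 on the log2 scale in B6 and 0.06 in CAST, near 0, the median of all regions by construction. By summit coverage, the 95% interval of the male over female ratio lay above 1 for 8 of 46 shared regions of the whole locus in B6 (17.4%, background 8.86%) and 15 of 46 in CAST (32.6%, background 23.5%). The interval lay below 1 for 0 regions in either strain, against 4.43% and 2.81% of all regions. The coverage ratio of all CAST regions had a median of 1.12, which raises the CAST male share throughout.

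Of these male-high regions, 7 of the 8 in B6 and 8 of the 15 in CAST lay around Cyp2d9, in the 34.5 kb from 20 kb before its start to the end of its window, a stretch marked out after the values were seen. It held 14 regions, of which males had 11 and females 7 in B6, and males had 12 and females 10 in CAST. Bases under peaks came to 8898, 3153, 7693 and 4539 bp in that order. By summit coverage, in B6 all 7 shared regions were higher in males, by 1.5-fold to 3.34-fold with a median of 2.17. In CAST 8 of 9 were, over a range of 1.08 to 3.42 with a median of 1.95. By fold enrichment, B6 females were above B6 males at chr15:82263751-82264467 (3.05 against 2.77), chr15:82265969-82266417 (2.15 against 1.59) and chr15:82274083-82275329 (3.4 against 3.07). At the other shared B6 regions of the stretch, males were higher by both measures. The highest local background in the stretch was 2.77 and 3.04 times the genome background in the male lists and 1.31 and 1.83 times in the female lists.

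**Figure D4:**
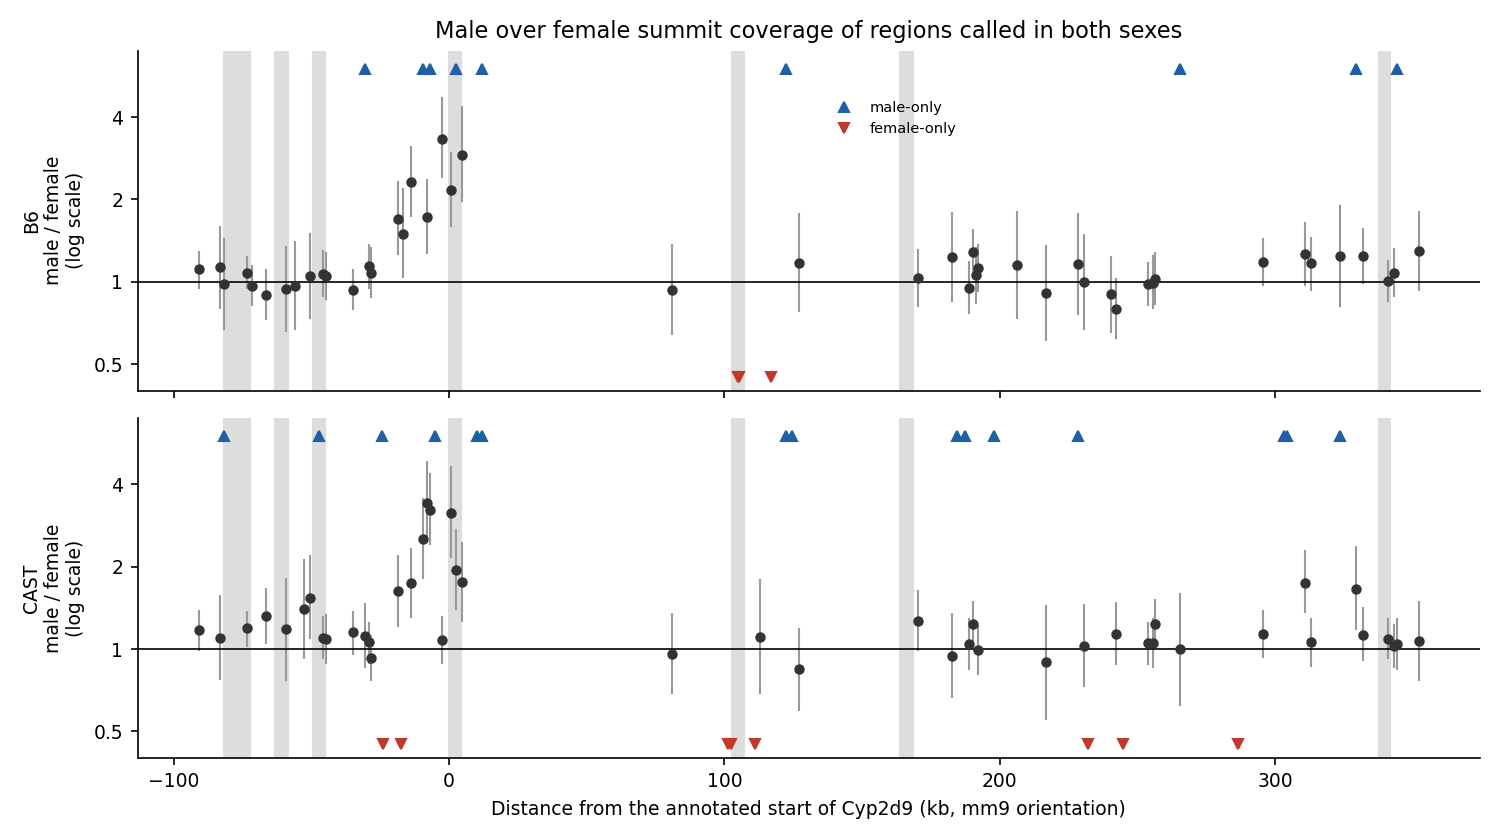
Male over female ratio of summit coverage over genome background (vertical axes, log scale) for each region called in both sexes of B6 (top) and CAST (bottom), against distance from the annotated start of Cyp2d9 (kb). Points are ratios, bars their 95% counting intervals, triangles mark regions called in 1 sex only (their height carries no value) and grey bands are gene bodies. Points near Cyp2d9 reach 3.34 in B6 and 3.42 in CAST, and most others lie near 1.

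The sex difference began between Cyp2d10 and Cyp2d9. At chr15:82254209-82254921, the last peak on the Cyp2d10 side called in all lists, summits held 183, 172, 208 and 212 fragments in B6 males, B6 females, CAST males and CAST females, with ratios of 1.08 (0.875 to 1.34) and 0.929 (0.763 to 1.13). At chr15:82263751-82264467, 18.7 kb before the start of Cyp2d9, they held 112, 67, 122 and 71 fragments. Here both male lists were above both female lists, with ratios of 1.7 (1.25 to 2.34) in B6 and 1.63 (1.2 to 2.21) in CAST.
The region chr15:82268272-82269583, 13.9 kb before the start, had 148, 65, 134 and 73 fragments, with ratios of 2.32 (1.72 to 3.15) and 1.74 (1.3 to 2.34). Between these 2 regions lay a pair called in 1 strain each. The region chr15:82265279-82265589, 17.4 kb before the start, was called in CAST females only, with 74 fragments, and was the only region of the stretch called in females and not in males. The region chr15:82265969-82266417 was called in B6 only, with 72 fragments in males and 49 in females, a ratio of 1.5 (1.03 to 2.2). At chr15:82268272-82269583 the fold enrichments, 2.87, 2.59, 2.66 and 2.32, differed far less, with local backgrounds of 50.9, 24.5, 49.8 and 30.9 fragments. The sex difference was thus present in summit and local background alike.

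Between 10 and 7 kb before the start, CAST males stood highest. The region chr15:82274083-82275329, 8.1 kb before the start, had 112, 66, 159 and 44 fragments, with ratios of 1.73 (1.26 to 2.38) in B6 and 3.42 (2.44 to 4.89) in CAST. Beside it, chr15:82275496-82276007 had 96 fragments in B6 males and no call in B6 females, with 205 and 60 fragments in CAST. Its CAST ratio was 3.23 (2.41 to 4.39), and CAST males were above B6 males 2.21-fold (1.72 to 2.84). At chr15:82272807-82273872 the summits held 97 fragments in B6 males, 133 in CAST males and 50 in CAST females, again without a call in B6 females.

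In the gene body of Cyp2d9 and just past it, males were higher in both strains. The intronic region chr15:82283325-82283974, 0.842 kb into the gene, had 130, 61, 123 and 37 fragments, with ratios of 2.17 (1.59 to 2.99) and 3.15 (2.16 to 4.68). The region over coding exons at chr15:82284831-82285584 had 112 fragments in B6 males and no call in B6 females, with 111 and 54 fragments in CAST. At the last exon, chr15:82287112-82288180, the values were 100, 35, 106 and 57 fragments, with ratios of 2.91 (1.96 to 4.41) and 1.76 (1.26 to 2.47). The female peaks there were also narrower, 265 and 560 bp against 1045 and 1049 bp in males. Beyond the gene, chr15:82293899-82295374 was the only region in the windows called in both male lists and neither female list, with 43 fragments in B6 males and 49 in CAST males, low in both. That is 1 of 38 regions (2.63%), against 2.35% of all regions, and 1 of the 6 male-only regions of B6, against 17.7% of all such regions. No region in the windows was female-only in both strains, against 1.23% of all regions, which with 38 regions is no difference that could be seen. CAST males alone had 2 more weak regions here, chr15:82277658-82277914 with 89 fragments and chr15:82292801-82293108 with 41.

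A region 2.65 kb before the start of Cyp2d9, chr15:82279868-82280455, between genes, was the exception. Its summits held 154 fragments in males and 47 in females of B6, and 210 and 184 in CAST. B6 females alone were low. The male over female ratio was 3.34 (2.39 to 4.73) in B6 and 1.08 (0.882 to 1.32) in CAST, and CAST females were above B6 females 4.35-fold (3.14 to 6.13), against 1.41-fold (1.14 to 1.75) in males. By fold enrichment the direction turned: 5.77 and 2.44 in B6 males and females, but 5.77 and 10.4 in CAST males and females. The local background was 25.9, 18.7, 35.6 and 16.8 fragments in the 4 lists, so that the female excess of fold enrichment in CAST came with a lower female background and a summit that did not differ beyond counting error. The 4 summits lay 2.67 to 2.71 kb before the start. The log2 difference between the strains' sex ratios, CAST minus B6, was -1.63 (-2.18 to -1.08). It was the lowest of the 37 regions of the locus called in all 4 lists. Over all 48266 such regions, 30 were as low (0.0622%), a share that takes no account of that choice.

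This region has copies upstream of other members. Local alignment of its 588 bases with the 6 kb before each member's start gave 348 aligned bases at 92.8% identity before Cyp2d11 and 342 at 82.2% before Cyp2d34, centred 2.54 and 2.58 kb before their starts. A shorter match of 65 bases was found before Cyp2d26. Scores were 562, 341 and 85, compared with at most 72 and a median of 25 for 788 other genes of chromosome 15. Cyp2d22, Cyp2d10 and Cyp2d12 scored 24 to 30, and within the 6 kb of Cyp2d9 itself no other copy scored above 29. The rest of the region matched pieces farther upstream of Cyp2d11 (200 bases at 98%, 3.21 kb before the start, and 49 bases at 100%) and of Cyp2d34 (205 bases at 85.4%), none of them called in any list.
The 300 bases from the start of each aligned stretch follow in the direction of transcription, with runs of 12 or more bases found in all 3 copies in capitals. They begin 2.70, 2.72 and 2.75 kb before the starts.
Cyp2d9 copy, chr15:82280106-82280405, plus strand: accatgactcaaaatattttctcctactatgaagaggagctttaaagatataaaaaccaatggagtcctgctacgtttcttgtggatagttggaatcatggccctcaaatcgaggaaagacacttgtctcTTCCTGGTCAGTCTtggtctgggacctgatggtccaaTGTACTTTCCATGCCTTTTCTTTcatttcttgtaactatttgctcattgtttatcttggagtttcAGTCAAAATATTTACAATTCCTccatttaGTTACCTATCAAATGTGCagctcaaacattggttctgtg
Cyp2d11 copy, chr15:82226872-82227171, minus strand: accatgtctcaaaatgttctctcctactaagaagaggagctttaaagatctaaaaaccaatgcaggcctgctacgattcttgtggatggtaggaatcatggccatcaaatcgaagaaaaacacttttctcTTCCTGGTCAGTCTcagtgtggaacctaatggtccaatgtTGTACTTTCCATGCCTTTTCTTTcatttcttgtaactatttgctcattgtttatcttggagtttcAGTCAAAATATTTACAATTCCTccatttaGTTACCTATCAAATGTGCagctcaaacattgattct
Cyp2d34 copy, chr15:82453790-82454089, minus strand: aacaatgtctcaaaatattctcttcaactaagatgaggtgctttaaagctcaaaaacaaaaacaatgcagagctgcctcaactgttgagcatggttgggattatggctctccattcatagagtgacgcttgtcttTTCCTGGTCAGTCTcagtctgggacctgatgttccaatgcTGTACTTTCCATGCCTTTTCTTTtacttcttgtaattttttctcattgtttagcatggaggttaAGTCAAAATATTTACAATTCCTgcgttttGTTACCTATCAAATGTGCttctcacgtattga

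The 3 copies carried different calls. The Cyp2d11 copy lay in chr15:82226687-82227290, called in B6 males (58 fragments) and B6 females (61 fragments) and in neither CAST list. The Cyp2d34 copy lay in chr15:82451787-82454166, called in all lists at 134, 132, 144 and 107 fragments, with sex ratios of 1.03 (0.807 to 1.32) in B6 and 1.27 (0.985 to 1.65) in CAST. The Cyp2d9 copy alone had the low B6 female value. Of the 78 regions of the locus, those with the Cyp2d11 and Cyp2d9 copies had the lowest shares of unique words, 70.5% and 85.5%, against a median of 100%, and 76 regions were above 90%. Reads of CAST were placed in a custom CAST genome, so strain differences within a sex at these copies cannot be told apart from differences in which reads map uniquely. The sex ratios compare lists mapped to the same genome.

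**Figure D5:**
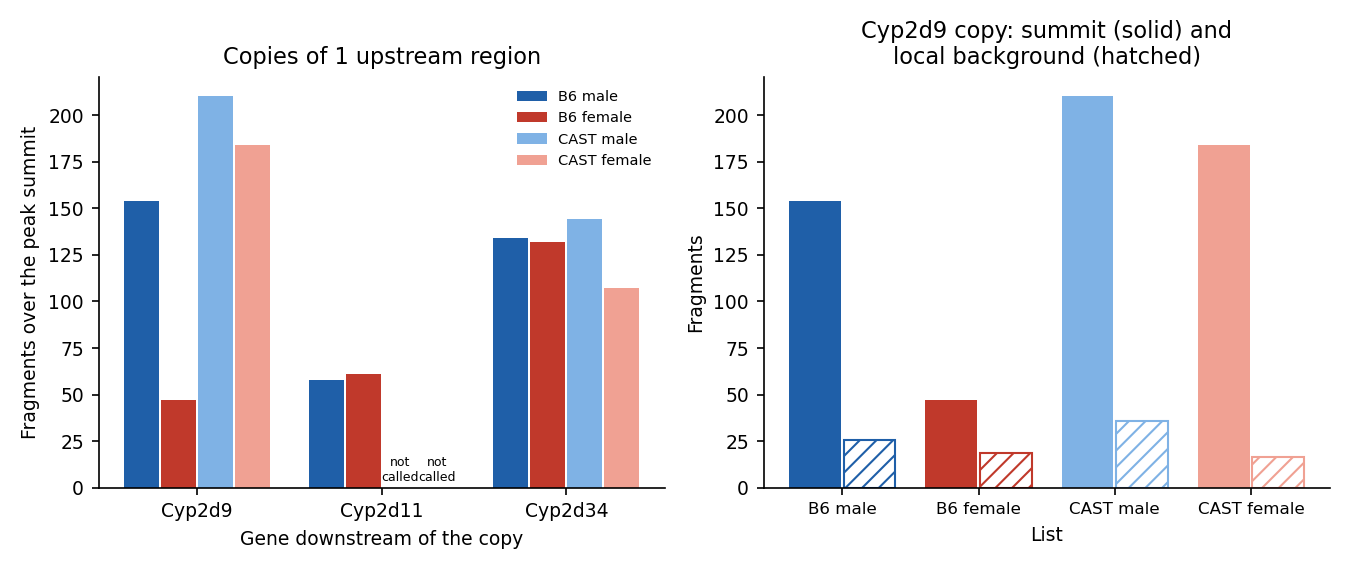
Left, fragments over the peak summit (vertical axis) at the copies before Cyp2d9, Cyp2d11 and Cyp2d34 in the 4 lists, with "not called" where a list has no peak. Right, summit fragments (solid) and local background fragments (hatched) of the Cyp2d9 copy, where B6 females have 47 and the other lists 154 to 210 summit fragments.

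Away from Cyp2d9, no B6 interval in the windows left out 1. In CAST a few did, all with males higher, but the median CAST ratio of all regions was itself 1.12, and of these only the interval of chr15:82611780-82612368 lay above it. At chr15:82231640-82233160, next to Cyp2d10, the summits held 66, 64, 88 and 54 fragments, with ratios of 1.05 (0.733 to 1.51) in B6 and 1.54 (1.09 to 2.21) in CAST. At chr15:82215650-82217044, between Cyp2d22 and Cyp2d11, they held 167, 190, 174 and 125 fragments, with ratios of 0.895 (0.723 to 1.11) and 1.32 (1.04 to 1.67). At chr15:82611780-82612368, next to Cyp2d26, B6 males had 77 fragments and B6 females no call, and CAST had 91 and 52, a ratio of 1.66 (1.17 to 2.38). The region with the highest mean fold enrichment over the 4 lists, chr15:82247281-82248414, 10.2 kb before the start of Cyp2d10, had fold enrichments of 6.42, 7.46, 6.22 and 6.48 and sex ratios of 0.934 (0.785 to 1.11) and 1.15 (0.953 to 1.38). The widest window regions called in all lists were chr15:82613282-82616133 next to Cyp2d26, chr15:82207898-82210643 over the first exon of Cyp2d22 and the Cyp2d34 region. At Cyp2d22 the summits held 422, 399, 402 and 321 fragments, 19.1 to 23 times the genome background, with fold enrichments of only 2.87 to 3.44 over local backgrounds of 92.5 to 146 fragments. Its sex ratios were 1.08 (0.937 to 1.24) in B6 and 1.19 (1.02 to 1.38) in CAST. At chr15:82613282-82616133 they held 133 to 178 fragments, with sex ratios of 1.24 (0.98 to 1.57) and 1.13 (0.905 to 1.42).
The other male-only call of B6 away from Cyp2d9 was chr15:82626996-82627270, also next to Cyp2d26, with 157 fragments, 8.55 times the genome background but 1.9-fold over its local background. There CAST males and females had 173 and 157 fragments, a ratio of 1.04 (0.835 to 1.3). Male-only in CAST were chr15:82235316-82235534 (85 fragments, 1.87-fold) in Cyp2d10 and chr15:82200919-82201552 (68 fragments, 1.94-fold) at the end of Cyp2d22.
Besides the Cyp2d11 copy, the other B6-only region in the windows was chr15:82210944-82211586, just before Cyp2d22, at 258 and 272 fragments in males and females. Its fold enrichments were only 1.72 and 1.92, over local backgrounds of 150 and 141 fragments. It lies beside chr15:82207898-82210643, which was called in all lists. The CAST-only regions were chr15:82230017-82230503, at 59 and 40 fragments, and chr15:82395517-82396209, at 40 and 34 fragments. At Cyp2d12, B6 females had gene body peaks at chr15:82387548-82387796 (40 fragments) and chr15:82388113-82388341 (50 fragments), and CAST females had chr15:82383952-82384246 (39) and chr15:82384923-82385280 (46) before the start. The female peaks of the strains did not overlap. Over all regions, 9.26% of those female-only in B6 were also female-only in CAST, so 0 of 3 does not stand out.

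Cyp2d13 is a transcribed pseudogene in RefSeq, which places it between Cyp2d34 and Cyp2d37-ps in gene order. In mm9 that interval is chr15:82451338-82519563, 68.2 kb. It held 14 regions, 7 of them called in all 4 lists, with 10, 11, 12 and 9 peaks over 10017, 9299, 8089 and 8339 bp in B6 males, B6 females, CAST males and CAST females. They include chr15:82451787-82454166, the region already described for Cyp2d34. In B6 the 10 shared regions had sex ratios of 0.909 to 1.28, the highest at chr15:82472638-82473502 with an interval of 1.06 to 1.56. No region of the interval was called in 1 sex only in B6. In CAST 4 were male-only and 1 was female-only, and the 7 shared regions had ratios of 0.897 to 1.27. The shares over all regions were 17.4% for males and 17.5% for females of B6, and 21.5% and 14.1% in CAST. Which of these peaks belong to Cyp2d13 was not analysed here.

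Genes that work with the P450 enzymes or control them were compared as a list. None of the 5 located genes for electron donors and haem supply (Por, Cyb5b, Cyb5r3, Pgrmc1 and Alas1, of 6 listed) had 1.5-fold more covered bases in either sex. Por, the electron donor of these enzymes, had 14016, 13748, 15066 and 15068 bp. Of 17 regulators, Cux2 alone passed, in females of both strains, and all 17 had promoter peaks in all lists. Hnf4a, a main activator of hepatocyte genes, had 16471, 14000, 17057 and 15552 bp. The 6 flanking genes had no 1.5-fold difference in either strain, and Nfam1, at 0.53 and 0.57 on the log2 scale, came nearest.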

How the data were processed

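H3K27ac ChIP-seq of whole liver was analysed as 4 merged peak lists, each pooled over 5 livers, with 24 samples (20 livers and 4 inputs) behind them. Per the labels and the study's methods, the authors mapped reads with Bowtie2, keeping unique alignments only, to mm9 for B6 and to a custom CAST genome for CAST, and converted CAST coordinates to mm9. By the methods they called peaks with MACS2 over input DNA; the local backgrounds recovered here followed ChIP peaks, and whether input entered them was not tested. They removed blacklisted peaks and peaks made only of duplicates. For each peak the deposited lists give a score, the fold enrichment ratio at the summit, the -log10 p-value, the -log10 q-value and the summit's offset. Library depth was not used here and single livers were not analysed here.

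Peaks of the 4 lists that overlapped by 1 base were merged into regions. Windows were gene bodies of GENCODE for mm9 with 10 kb on each side. A region called in 1 sex of a strain was male-only or female-only. Fold enrichment was compared as log2 male over female, centred on all shared regions, with a 1.5-fold threshold, and covered bases with 100 bp added to each side. Summit fragments and local background were solved from fold enrichment and p-value, with the solver checked on made-up cases of known answer, and compared with exact conditional binomial intervals (95%). Percentile ranks of peaks follow the q-value. Words of 36, 50 and 100 bases were counted in mm9. For sequences and motifs, promoters were the 250 bases before a start, and for peaks and unique words the 1 kb on each side of it. Local alignment scored 2 for a match, -3 for a mismatch, -5 to open and -2 to extend a gap. All members were described. Regions were named by class: up to 3 of the highest rank among sex-only and strain-only calls, the 3 highest and 3 lowest shared regions per strain and the 3 widest, with all regions near Cyp2d9 added after their values were seen. Members, lists and motifs were chosen with earlier results of these data known. Python 3.11.15, numpy 2.4.6, pandas 2.3.3, scipy 1.17.1, numba 0.67.0 and Biopython 1.88 were used.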

Additional observations from a re-analysis of the deposited data

Results flagged for a closer look

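In 5 regions of the locus the male over female ratio of summit coverage differed between the strains by more than counting error. The differences, CAST minus B6 on the log2 scale, are given with 95% counting intervals, and were not tested across livers. They are not centred, and the median over all 48266 regions called in all 4 lists was 0.14. The region 2.65 kb before Cyp2d9, chr15:82279868-82280455, had -1.63 (-2.18 to -1.08), a larger ratio in B6. The region 8.1 kb before Cyp2d9, chr15:82274083-82275329, had 0.98 (0.333 to 1.64), a larger ratio in CAST. The last exon of Cyp2d9, chr15:82287112-82288180, had -0.73 (-1.45 to -0.00129). Between Cyp2d22 and Cyp2d11, chr15:82215650-82217044 had 0.56 (0.111 to 1), an interval that holds that median. Outside the windows, chr15:82523682-82526359 had 0.52 (0.00574 to 1.04), whose interval holds it too. An interval without 0 was found for 5 of 37 regions of the locus called in all 4 lists (13.5%), against 17.5% of all such regions, so the number of these regions does not stand out.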

How the results depend on the processing

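Of 70 alternative values, 41 stayed within the tolerance set for them (1.5-fold for counts, 0.2 on the log2 scale for ratios and 1 percentage point for unique words) and 29 moved. The median log2 sex ratio of shared regions, near 0 in both strains, changed sign in some: in CAST from 0.06 to -0.09 at a -log10 q-value of at least 5, and in B6 from -0.03 to 0.01 by p-value and 0.10 by summit coverage. The log2 male over female ratio of covered bases stayed between 0.13 and 0.28 in B6 and between 0.15 and 0.41 in CAST. Sex-only counts follow the matching rule: with peaks matched at 50% of both, which counts peaks, 10 of 30 male and 8 of 28 female peaks were unmatched in B6 (33.3% and 28.6%, against 37.6% and 39.3% of all peaks), and 15 of 34 and 11 of 30 in CAST (44.1% and 36.7%, against 40.6% and 36.7%). With windows of 25 kb, male-only and female-only regions were 10 and 5 in B6 and 12 and 6 in CAST. With windows of 2 kb the male-only counts were 1 in B6 and 2 in CAST, and when gaps of up to 500 bp were bridged the B6 male-only count was 3. The numbers of regions called at these settings are not given here, so these counts show only how far they move. At a -log10 q-value of at least 5 the B6 female-only count was 1 of 26 (3.85%, against 13.6% of all regions), CAST male-only 10 of 28 (35.7% against 20%) and CAST female-only 1 of 28 (3.57% against 10.3%), and 1 shared region in each strain was higher in males. Shared regions higher in males were 4 of 21 in B6 and 9 of 25 in CAST by -log10 p-value, with 1 higher in females in B6. At 2-fold in fold enrichment, shared regions higher in males were 1 in B6 and 0 in CAST, with 0 higher in females in CAST. The shares of all regions at these 2 settings are not given here, so these counts are not set against a background. With 36-base and 100-base words, 74.1% and 90.6% of the windows were unique. Chosen after the data were seen, summit coverage gave 4 of 21 shared regions higher in B6 males, and 8 and 0 of 25 higher in CAST males and CAST females. The share of all regions past 1.5-fold by this measure is not given here. The whole locus, also chosen then, gave 15 male-only and 8 female-only regions in CAST beside 46 called in both sexes. Among all regions called in CAST, 21.5% were male-only and 14.1% female-only. No paired analysis was possible because each group is 1 pooled list, and for the same reason no liver could be left out. Depth per liver was not used here, and repeated sequence limits what an absent peak means.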
